A study of Mus musculus with 2 samples.

Results

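A set of 10 genes that move acid, base and ammonia across kidney epithelia, or that hydrate carbon dioxide, was followed in whole kidneys of mouse embryos: 4 carbonic anhydrases (Car2, Car4, Car12 and Car15), 3 bicarbonate transporters of the SLC4 family (Slc4a1, Slc4a4 and Slc4a9), the sodium-proton exchanger Slc9a3, the anion exchanger Slc26a4 and the ammonia channel Rhcg. They were taken by Ensembl identifier from the deposited gene and transcript tables, and all 10 of 10 were found among 43346 mouse genes. The tables describe total RNA from kidneys of B6NCrl mouse embryos of mixed sex at an age of 16.5 days. There is 1 group of 2 biological replicates, each a pool. The pool of replicate 2 came from 41 embryos, and for replicate 1 no number is given. No treatment, mutant or second age or tissue is named, so every result is a description within this tissue or between the 2 pools. For 2 genes compared within each of 2 libraries the smallest exact two-sided p would be 0.5, so no test was made.

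The kidney keeps blood pH by reclaiming filtered bicarbonate in the proximal tubule and by secreting acid or base in the collecting duct. Carbonic anhydrases convert carbon dioxide and water to bicarbonate and a proton, and transporters on the apical and basolateral faces of the cell then carry the products in opposite directions. In the proximal tubule Slc9a3 (NHE3) secretes protons into the lumen and Slc4a4 (NBCe1) passes bicarbonate to the blood. In the collecting duct, acid-secreting intercalated cells use Slc4a1 (AE1) on the blood side, base-secreting cells use Slc26a4 (pendrin) on the luminal side, and Rhcg carries ammonia. Slc4a1 and Slc4a4 each have known forms that differ at the amino end according to where transcription begins, and Slc4a1 is also a major protein of the red cell membrane.

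The total of expected counts was 38706236 for replicate 2 and 35255968 for replicate 1. The 10 genes took 14362 of them in replicate 2 and 11166 in replicate 1. Levels are in TPM, the unit of relative transcript abundance that is scaled to gene length. For an effective length of 2 kb, 10 counts equalled 0.201 TPM in replicate 2 and 0.218 TPM in replicate 1. Means are given with the SD over both libraries (n = 2). That spread may be partly technical. In whole tissue, fewer cells of a type and less RNA per cell cannot be told apart.

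The starts of Slc4a1 and Slc4a4 carry the question of forms, so the first coding bases of the models concerned are shown first, read 5′ to 3′ from GENCODE M21 on GRCm38, with the start codons and, for Slc4a1, a later pair of ATG codons in capitals. Slc4a4-207 begins to code at chr5:88934750-88934809 (plus strand) and Slc4a4-203 at chr5:89028172-89028231. The 2 open reading frames join the same sequence from position 89028293, after 253 coding bases in Slc4a4-207 and 121 in Slc4a4-203.
Slc4a4-207, upstream start: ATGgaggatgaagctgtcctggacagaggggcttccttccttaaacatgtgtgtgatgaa
Slc4a4-203, internal start: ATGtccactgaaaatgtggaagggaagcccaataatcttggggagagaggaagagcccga
Slc4a4, first bases common to both: tctccccggccgcagaacgcatccgattca

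For Slc4a1 the first coding bases of the full-length model Slc4a1-201 lie within chr11:102361217-102361395 (minus strand, across an intron). A second stretch of the same open reading frame, chr11:102359337-102359396, holds in-frame ATG codons 79 and 80. Within the first 100 codons the other in-frame ATG codons are 1, 4 and 41, all in exons before the stretch shared with the one model that starts inside an intron.
Slc4a1-201, full-length start: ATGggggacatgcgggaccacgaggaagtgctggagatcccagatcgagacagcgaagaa
Slc4a1-201, internal ATG codons: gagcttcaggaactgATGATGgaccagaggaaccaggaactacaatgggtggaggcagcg

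All 10 genes reached 1 TPM in both libraries, against 34.7% of all mouse genes and 62.2% of 21474 protein-coding genes. Their mean levels ran from 79.4 TPM for Car2 to 1.33 TPM for Slc26a4, and they summed to 307.89 TPM in replicate 2 and 257.37 TPM in replicate 1. Car2, Car4 and Rhcg made up most of that sum, with mean shares of 28.1%, 26.8% and 17.9%. The lowest genes, Slc9a3 and Slc26a4, took 0.746% and 0.474%.

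**Figure D1:**
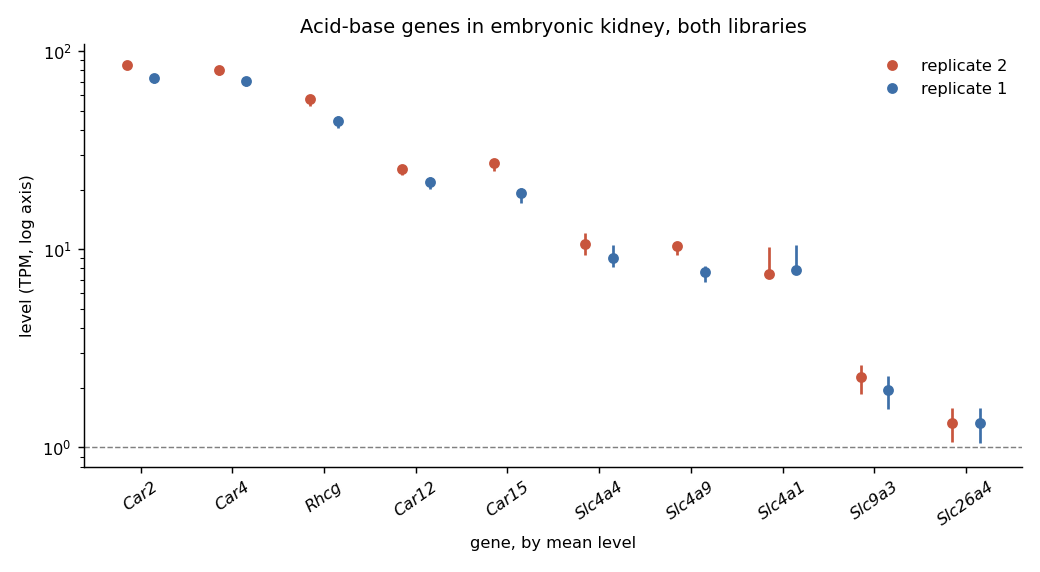
Level of each gene in TPM (log axis) in replicate 2 (left point of each pair) and replicate 1 (right point), with the deposited lower and upper TPM bounds as vertical lines and a dashed line at 1 TPM. All 10 genes lie above the dashed line in both libraries, from Car2 at 85.59 and 73.2 TPM in replicate 2 and replicate 1 down to Slc26a4 at 1.33 TPM in both.

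The carbonic anhydrases were among the most abundant of the genes. Car2 (ENSMUSG00000027562.8, chr3:14886273-14900770, plus strand), the cytosolic enzyme of proximal tubule, collecting duct and red cells, had 85.59 TPM in replicate 2 and 73.2 TPM in replicate 1 (79.4 ± 8.76). This was above the mean level of 89.8% of protein-coding genes. Car4 (ENSMUSG00000000805.14, chr11:84957786-84966044, plus strand), anchored to the outer face of the cell membrane and known from the proximal tubule brush border, had 80.4 TPM in replicate 2 and 70.88 TPM in replicate 1 (75.6 ± 6.73). Car2 was above Car4 within each library, by 0.09 log2 units in replicate 2 and 0.05 in replicate 1, while the ranges of their levels over both libraries overlapped.

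Car12 (ENSMUSG00000032373.10, chr9:66713686-66766845, plus strand), a membrane-spanning enzyme of the basolateral face of tubule cells, had 25.42 TPM in replicate 2 and 21.82 TPM in replicate 1 (23.6 ± 2.55). Car15 (ENSMUSG00000090236.2, chr16:17835276-17838364, minus strand), a membrane-anchored enzyme active in mouse, had 27.2 TPM in replicate 2 and 19.23 TPM in replicate 1 (23.2 ± 5.64). Car15 was the higher of this pair in replicate 2 and Car12 in replicate 1. Car15 shares sequence on the same strand with the readthrough gene Gm20518, which was listed at 2.65 TPM in replicate 2 and 2.53 TPM in replicate 1, and its own counts were not whole (802.94 in replicate 2, 522.66 in replicate 1), and the tables do not show with which entries its reads were shared. The value of Car15 is uncertain for that reason.

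These 4 genes were the 4 highest of 16 carbonic anhydrase genes and held 29.8% (Car2), 28.4% (Car4), 8.86% (Car12) and 8.71% (Car15) of the TPM of the family. Of the other 12 members 8 reached 1 TPM in both libraries. The next in order, Car3 with 18.0 ± 0.523 TPM and Car14 with 17.7 ± 1.00 TPM, were named after their values were seen. The lowest were Car5a, a mitochondrial enzyme known from liver, with 0.03 TPM, and Car1, the abundant cytosolic enzyme of adult red cells, with 0 TPM in replicate 2 and 0.18 TPM in replicate 1, the last resting on 3 counts. Car1 was therefore near or below what these depths can show, in a tissue where Car2 was the highest gene of the family.

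Rhcg (ENSMUSG00000030549.5, chr7:79593363-79617657, minus strand), the ammonia channel of the connecting segment and collecting duct, had 57.16 TPM in replicate 2 and 44.36 TPM in replicate 1 (50.8 ± 9.05). It lay below Car4 by 0.49 log2 units in replicate 2 and 0.67 in replicate 1, and above Car12 by 1.17 in replicate 2 and 1.02 in replicate 1, with no overlap on either side. Rhcg held 78.8% of the TPM of the 4 Rh genes. Rhbg, its basolateral relative, had 11.45 TPM in replicate 2 and 9.45 TPM in replicate 1. Rhd had 2.35 TPM as a mean, and Rhag 0.85 TPM as a mean and so below 1.

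Of the bicarbonate transporters, Slc4a4 (ENSMUSG00000060961.10, chr5:88886818-89239653, plus strand) had 10.62 TPM in replicate 2 and 9.04 TPM in replicate 1 (9.83 ± 1.12). Slc4a9 (AE4; ENSMUSG00000024485.11, chr18:36528147-36556273, plus strand), known from the basolateral face of base-secreting intercalated cells, had 10.37 TPM in replicate 2 and 7.71 TPM in replicate 1 (9.04 ± 1.88). Slc4a1 (ENSMUSG00000006574.11, chr11:102348824-102366203, minus strand) had 7.54 TPM in replicate 2 and 7.85 TPM in replicate 1 (7.70 ± 0.219). The neighbours overlapped in both steps of this order: Slc4a4 was above Slc4a9 by 0.03 log2 units in replicate 2 and 0.23 in replicate 1, and Slc4a9 above Slc4a1 by 0.45 in replicate 2 but below it by 0.03 in replicate 1. They ranked 3, 4 and 5 of 10 SLC4 genes. Above them stood Slc4a2 (AE2), a broadly expressed chloride-bicarbonate exchanger, with 43.17 TPM in replicate 2 and 40.63 TPM in replicate 1, and Slc4a3 with a mean of 20.4 ± 0.530 TPM. Of the other 7 members 5 reached 1 TPM in both libraries, and Slc4a5 (0.67 TPM) and Slc4a10 (0.22 TPM) were the lowest by mean.

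The 2 apical exchangers that work at the luminal face were the lowest of the genes. Slc9a3 (ENSMUSG00000036123.6, chr13:74121457-74169442, plus strand) had 2.26 TPM in replicate 2 and 1.95 TPM in replicate 1 (2.11 ± 0.219), on 135 and 107 counts in replicate 2 and replicate 1. Slc26a4 (ENSMUSG00000020651.7, chr12:31519827-31559969, minus strand) had 1.33 TPM in both libraries, on 99 counts in replicate 2 and 91 in replicate 1. The deposited TPM bounds, whose interval level the headers do not name, were 1.06 to 1.58 in replicate 2 and 1.06 to 1.59 in replicate 1 for Slc26a4, so its level stayed above the detection threshold by a small margin. Slc9a3 lay above Slc26a4 by 0.72 log2 units in replicate 2 and 0.52 in replicate 1 without overlap, and below Slc4a1 by 1.69 in replicate 2 and 1.96 in replicate 1. In all, 4 of the 9 neighbouring pairs of the order overlapped between libraries and 5 did not.

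Slc9a3 ranked 6 of 9 sodium-proton exchangers and held 4.46% of the TPM of the family. The Golgi exchanger Slc9a8 had 19.2 ± 2.57 TPM and the endosomal exchanger Slc9a9 3.41 TPM as a mean, while Slc9a7 (0.93 TPM) and Slc9a4 (0.365 TPM) were the lowest. Slc26a4 ranked 7 of 11 anion exchangers of the SLC26 family and held 2.63%. Its highest relatives were Slc26a6, an apical chloride-anion exchanger of the proximal tubule, with 12.3 ± 0.332 TPM, the sulfate transporters Slc26a2 (11.4 ± 1.99 TPM) and Slc26a1 (7.98 TPM as a mean), and Slc26a11 (9.87 TPM). Slc26a3, an exchanger of the gut, and Slc26a5, the motor protein of hair cells, were the lowest at 0.06 and 0.045 TPM. The highest gene of the SLC9 and SLC26 families was thus not the one followed, as in the SLC4 family.

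Further lists place the genes in their pathway. Of 7 genes of ammonia production and its amino acid supply, 6 reached 1 TPM in both libraries. Glud1, glutamate dehydrogenase, had 98.2 ± 3.44 TPM, the amino acid transporter heavy chain Slc3a2 73.2 ± 1.08, and Pck1, the gluconeogenic enzyme of the proximal tubule, 30.6 ± 2.32, while the glutamine transporter Slc38a3 averaged 10.5 TPM. The liver-type glutaminase Gls2 had 0.96 TPM in replicate 2 and 1.04 TPM in replicate 1. Of 12 regulators 11 reached the threshold, led by Ezr (202 ± 7.71 TPM) and the scaffold genes Slc9a3r1 (139 ± 5.81 TPM) and Slc9a3r2 (93.7 ± 4.33 TPM), whose proteins hold Slc9a3 at the apical membrane. Ahcyl1, which codes for the IRBIT protein that activates Slc4a4, had 79.6 ± 1.69 TPM. The lowest were Insrr, an alkali-sensing receptor, with 2.27 TPM, and Adcy10, the bicarbonate-sensing adenylyl cyclase, with 0.18 TPM. The scaffolds of Slc9a3 were thus far more abundant per length than Slc9a3 itself.

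Marker lists of nephron segments were read beside the genes. All 9 proximal tubule markers were detected in both pools. Their median was 21.67 TPM in replicate 2 and 20.51 TPM in replicate 1. The phosphate transporter Slc34a1 was highest at 239.95 TPM in replicate 2 and 217.51 TPM in replicate 1, and Slc5a12 lowest at a mean of 3.05 TPM. Of the proximal genes followed, Car4 lay above and Slc4a4 and Slc9a3 below that median in both libraries. All 5 markers of the loop of Henle were detected, led by Slc12a1 at 60.5 TPM as a mean, and 4 of 6 distal tubule markers, of which Pvalb was lowest at 0.185 TPM.

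In the collecting duct, all 8 principal cell markers were detected, and their median was 40.9 TPM in replicate 2 and 38.2 TPM in replicate 1, led by the water channel Aqp2 at 133.6 TPM in replicate 2 and 89.59 TPM in replicate 1. Of 9 intercalated cell markers, a list that leaves out the genes followed, 7 were detected, and their median was 5.27 TPM in replicate 2 and 3.75 TPM in replicate 1. Foxi1, the transcription factor required for intercalated cells, had 21.17 TPM in replicate 2 and 23.13 TPM in replicate 1, the proton pump subunits Atp6v0a4 and Atp6v1b1 averaged 20.7 ± 4.23 and 9.12 ± 1.39 TPM, and Aqp6 was lowest at 0.065 TPM. Slc4a1 and Slc4a9 lay above the intercalated median in both libraries and Slc26a4 below it. Rhcg lay above every intercalated marker of the list in both libraries, and it is known from principal cells as well.

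Slc4a1 was also read beside 18 erythroid markers, of which 11 reached 1 TPM. The globin genes gave very high levels, with Hba-a2 at 9096 TPM and Hbb-bs at 4967 TPM as means, and the list summed to 20152.8 TPM in replicate 2 and 20994.6 TPM in replicate 1. The other globin genes named by the same rule were Hba-a1 at 3590 TPM and Hbb-bt at 2823 TPM as means, and Car1 was the lowest of the list. Its median was 1.89 TPM in replicate 2 and 1.93 TPM in replicate 1. Slc4a1 lay above that median and below the 4 globin genes in both libraries. How much of the Slc4a1 level came from red cells and how much from tubule cells cannot be told apart from gene levels, so the transcript models were examined.

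The 10 genes had 35 transcript models in the deposited tables, of which 27 had counts in at least 1 library. Shares are the deposited percent of each model within its gene. Car15, Slc9a3 and Slc26a4 have a single model each, and for the other 7 the leading model was the same in both libraries.

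For Slc4a1 the tables hold 1 protein-coding model, Slc4a1-201 (4545 nt, 20 exons, 929 codons). It starts upstream of the first coding exon, as the erythroid form does, and took 100% of the gene in both libraries, on 836 counts in replicate 2 and 801 in replicate 1. No protein-coding model in the tables starts downstream of the first coding exon, so a kidney form as such has no entry that could have received reads. The nearest is the non-coding model Slc4a1-204 (357 nt), whose first exon of 38 nt, chr11:102360531-102360568, lies in the intron between exon 3 (chr11:102361141-102361261) and exon 4 (chr11:102360147-102360220) of Slc4a1-201. It had 0 counts in both libraries.

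The strength of that 0 is limited by the short first exon and by how reads are divided. Had every Slc4a1 count come from that start with even coverage, 7.15 counts in replicate 2 and 6.85 in replicate 1 would begin within the 38 bases, or 14.0 in both together. A count of 0 therefore allows a share of up to 42.0% in replicate 2, 43.8% in replicate 1 and 21.4% over both, a floor of 3 counts that covers counting error alone and assumes that the 38 bases are the first exon of such a form. The deposited posterior mean TPM, a second estimate from the same reads, gave Slc4a1-201 84.7% in replicate 2 and 84.8% in replicate 1. Slc4a1-204 had 7.71% in replicate 2 and 5.87% in replicate 1. Slc4a1-202, Slc4a1-203 and Slc4a1-205, also at 0 counts, had 1.31%, 2.48% and 3.8% in replicate 2. In replicate 1 they had 1.61%, 3.73% and 3.97%. Each model without counts thus received a share by this estimate. Models that start upstream of the first coding exon together had 92.3% in replicate 2 and 94.1% in replicate 1. The deposited upper bound of Slc4a1-204 was 1.89 TPM in replicate 2 and 1.54 TPM in replicate 1. Nearly all sequence of a shorter form would be common to Slc4a1-201, and the tables do not say how many of its counts lay in the upstream exons. They place every count on the erythroid model, and a kidney form was not detectable in them rather than shown to be absent.

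For Slc4a4, models with both kinds of start were assigned counts. The upstream start is the one used by the forms known from pancreas and many other tissues, and the internal start, 141148 nt downstream, gives the form known from the proximal tubule. Models with the upstream start took 46.5% of the gene in replicate 2 and 50.4% in replicate 1 (48.4 ± 2.75%), and those with the internal start 53.5% in replicate 2 and 49.6% in replicate 1 (51.6 ± 2.76%). As levels these were 4.94 TPM upstream and 5.68 TPM internal in replicate 2, and 4.55 TPM upstream and 4.49 TPM internal in replicate 1. Neither start led in both libraries.

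The split depends on which models are counted. The long model Slc4a4-207 (7931 nt) had 45.5% in replicate 2 and 50.4% in replicate 1, and the internal full-length model Slc4a4-203 (3335 nt) 26.4% in replicate 2 and 31.2% in replicate 1. The short internal model Slc4a4-204 (780 nt) had 26.6% in replicate 2 and 15.4% in replicate 1, on 47.88 and 21.76 counts in replicate 2 and replicate 1. With only models coding over 3000 nt, the upstream start took 63.3% in replicate 2 and 61.8% in replicate 1. By expected counts, which are not corrected for length, it took 77.3% in replicate 2 and 76.9% in replicate 1. The last 3859 nt of Slc4a4-207, 48.7% of its length, are in no other model. Reads there can be assigned to that model alone whatever start the molecule had. Of the other upstream models only Slc4a4-205 had counts, 1 in replicate 2 and 0 in replicate 1. How many counts lay in exons particular to either start is not given. The start shares of Slc4a4, and the use of the upstream start itself, are therefore uncertain.

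The 2 Slc4a4 starts also differ in the bases around them. The RefSeq windows on GRCm38.p6, from 250 bases before to 50 after each start, are shown with CG pairs in capitals, since CG content is what separates them. The upstream window, chr5:88887010-88887309 (plus strand), held 80.0% G and C and 50 CG pairs, more than 99.0% and 99.1% of 32851 mouse promoters. The internal window, chr5:89027716-89028015, held 48.3% and 3 pairs, more than 33.2% and 23.3% of them. The internal RefSeq start is the first base of Slc4a4-203 (position 89027966), while the upstream one lies inside Slc4a4-207, which begins at position 88886818.
Slc4a4 upstream promoter: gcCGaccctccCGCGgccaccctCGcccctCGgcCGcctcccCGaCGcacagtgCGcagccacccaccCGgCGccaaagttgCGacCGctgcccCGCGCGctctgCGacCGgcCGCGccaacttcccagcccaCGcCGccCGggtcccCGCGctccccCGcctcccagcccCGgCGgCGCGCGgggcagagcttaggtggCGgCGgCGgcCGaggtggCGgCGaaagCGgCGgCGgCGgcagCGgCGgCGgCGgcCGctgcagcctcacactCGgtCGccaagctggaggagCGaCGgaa
Slc4a4 internal promoter: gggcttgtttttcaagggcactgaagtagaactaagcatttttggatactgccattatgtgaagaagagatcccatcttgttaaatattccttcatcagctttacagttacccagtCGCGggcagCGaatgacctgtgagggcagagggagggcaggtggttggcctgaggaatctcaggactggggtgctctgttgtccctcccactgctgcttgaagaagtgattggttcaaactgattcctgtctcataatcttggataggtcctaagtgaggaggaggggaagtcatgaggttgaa

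RefSeq windows were matched for 7 of the 10 genes, 8 windows in all, and not for Car2, Slc4a1 and Slc4a9. The medians over all promoters were 52.7% G and C and 7 CG pairs. Among the other windows, Slc9a3 held 68.7% and 25 pairs, Rhcg 60.7% and 19, Car12 58.3% and 9, Car4 57.3% and 15, Car15 50.3% and 4, and Slc26a4 50.0% and 6. The letters TATAAA, searched on both strands, were in the windows of Slc26a4, beginning 31 bases before the start, and Car4, 42 bases after it, and in 13.6% of all promoters. The letters TGTTTAC, which forkhead factors such as Foxi1 are known to bind, and GTTAAT, bound by HNF1 factors, were in 0 of the 8 windows. They were in 3.65% and 7.10% of all promoters, so a count of 0 in 8 windows says little.

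**Figure D2:**
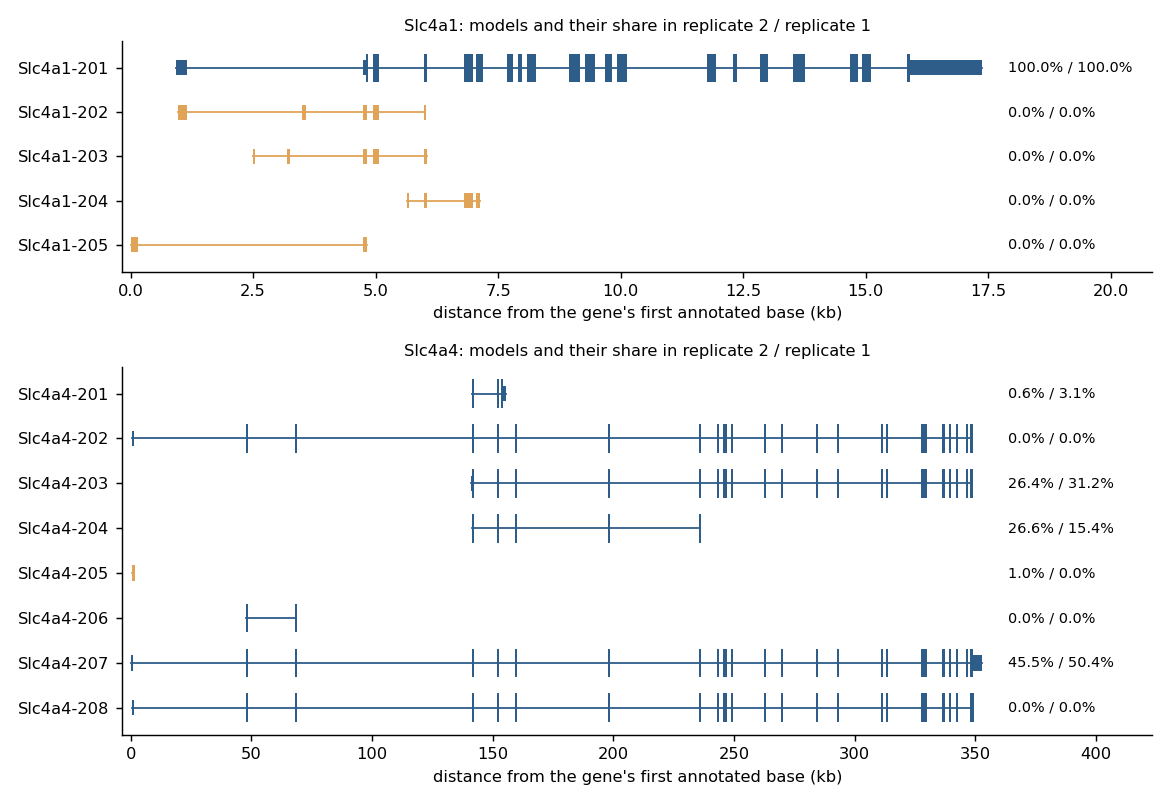
Transcript models of Slc4a1 (top) and Slc4a4 (bottom) drawn 5′ to 3′ against distance in kb from the first annotated base of the gene, exons as blocks (thick where coding), protein-coding models in blue and others in orange, with the share of each in replicate 2 and replicate 1 at the right. Slc4a1-201 holds 100% in both libraries and Slc4a1-204, which starts inside an intron, 0%, while the Slc4a4 shares divide between the long upstream model and 2 internal models.

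Car12 and Slc4a9 were the other genes with more than 1 abundant protein-coding model. Car12-201 took 49.3% in replicate 2 and 55.8% in replicate 1, and Car12-202 43.6% in replicate 2 and 33.8% in replicate 1. Car12-201 has a coding exon of 30 nt, exon 9 of 11 at chr9:66762403-66762432, that Car12-202 lacks. It is shown in capitals between the last 15 coding bases of the exon before it and the first 15 of the exon after it (GRCm38, plus strand), since it adds codons without shifting the frame.
Car12-201 exon 9 with flanks: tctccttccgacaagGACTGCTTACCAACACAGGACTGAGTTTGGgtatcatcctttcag

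A further 7.15% of Car12 in replicate 2 and 9.63% in replicate 1 was assigned to models with a retained intron. Slc4a9-202 took 55.6% in replicate 2 and 66.3% in replicate 1, and Slc4a9-201 44.4% in replicate 2 and 33.7% in replicate 1. Their coding lengths are 2787 nt and 2640 nt with 20 exons each, so both are long open reading frames. The effective number of models, the inverse of the summed squared shares, was 2.88 in replicate 2 and 2.66 in replicate 1 for Slc4a4, 2.29 and 2.31 for Car12, and 1.98 and 1.81 for Slc4a9, in the same order of libraries.

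Car2, Car4 and Rhcg were close to a single model. Car2-201 took 96.1% in replicate 2 and 92.7% in replicate 1, with 2.78% and 5.15% on the retained intron model Car2-203 in replicate 2 and replicate 1. Car4-201 took 97.7% in replicate 2 and 99.2% in replicate 1. Rhcg-201 took 90.6% in replicate 2 and 89.9% in replicate 1, and the short Rhcg-203 most of the rest, with 9.40% and 8.90% in replicate 2 and replicate 1 from 47.26 and 32.01 counts. The 3 most abundant genes were thus also those with the least divided transcripts among the 6 with more than 1 expressed model.

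**Figure D3:**
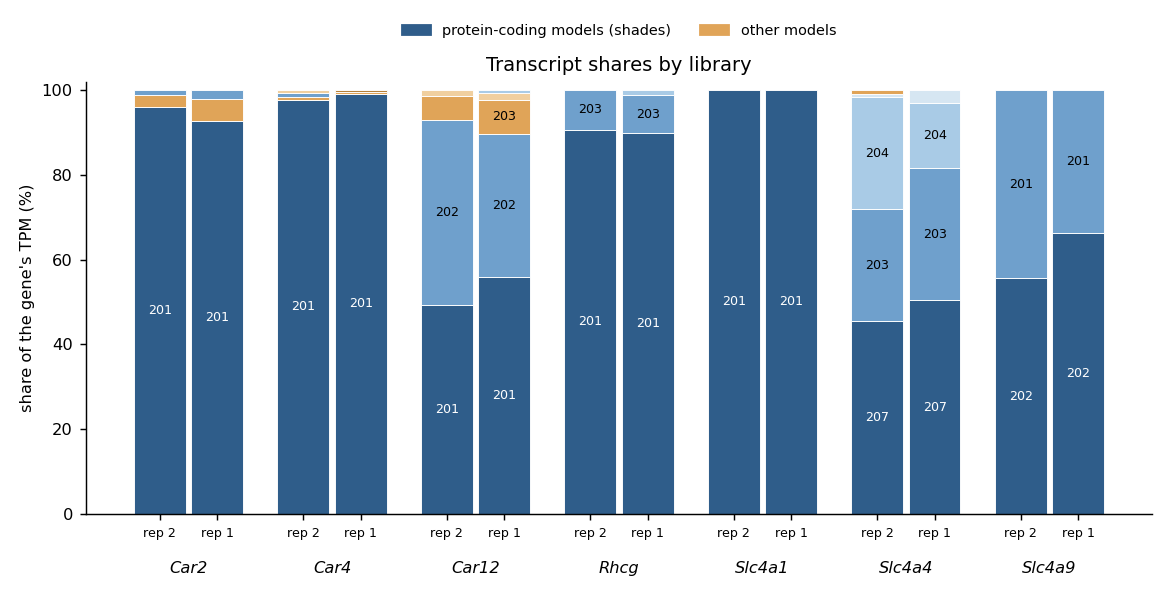
Share of the TPM of each gene (percent) held by each transcript model in replicate 2 (left bar) and replicate 1 (right bar) for the 7 genes with more than 1 model, protein-coding models in blue shades and others in orange, the larger ones labelled by model number. Slc4a1 is a single block in both libraries, and Slc4a4, Car12 and Slc4a9 divide, with leading shares of 45.5%, 49.3% and 55.6% in replicate 2 and 50.4%, 55.8% and 66.3% in replicate 1.

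The 2 pools were compared by the log2 ratio of replicate 2 to replicate 1 of CPM (counts scaled to library size) after TMM scaling, over the 15363 genes that averaged 1 CPM or more. The 95% exact binomial intervals cover counting error only, and with 1 library a side there is no test. None of the 10 genes (0) differed over 2-fold, against 2.35% of all genes. A ratio above 0 was seen for 8 of 10, against 49.9% of all genes, and the median of the 10 was 0.22.

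Car15 had the largest ratio, 0.49 (0.33 to 0.65), followed by Slc4a9 with 0.41 (0.24 to 0.58) and Rhcg with 0.36 (0.28 to 0.45). For comparison, 5% of all genes lay below -0.49 and 5% above 0.36, so these 3 were at or past the upper end of that range. Car12 (0.25), Car2 (0.24) and Car4 (0.16) were also above 0 with their whole counting interval. For Slc9a3 (0.20), Slc4a4 (0.07), Slc26a4 (-0.01) and Slc4a1 (-0.07) the interval included 0. Slc4a1 was the lowest of the 10.

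Marker lists moved beside these ratios. The median log2 ratio was 0.38 for intercalated markers (6 of 7 above 0), 0.32 for loop of Henle (5 of 5), 0.23 for proximal tubule (9 of 9) and 0.13 for principal cells (6 of 8). It was -0.19 for distal tubule (2 of 5 above 0), 0.02 for endothelium (5 of 6), -0.07 for macrophages (2 of 5) and -0.10 for erythroid markers (3 of 16 above 0). Summed levels were 76.12 TPM in replicate 2 and 65.97 TPM in replicate 1 for intercalated markers, 130.98 and 108.94 TPM for loop of Henle, 479.37 and 414.66 TPM for proximal tubule, and 380.72 and 337.42 TPM for principal cells, with replicate 2 the higher in each. The distal tubule sum was lower in replicate 2, with 126.47 TPM against 134.1 TPM in replicate 1. No marker of these lists was at 0 in both libraries. Adrenal cortex markers, of a gland that lies against the kidney, had a median of 0.82 (5 of 5) and summed to 136.84 TPM in replicate 2 and 89.34 TPM in replicate 1. The part of cell makeup or dissection in the ratios of the 10 genes was not tested.

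**Figure D4:**
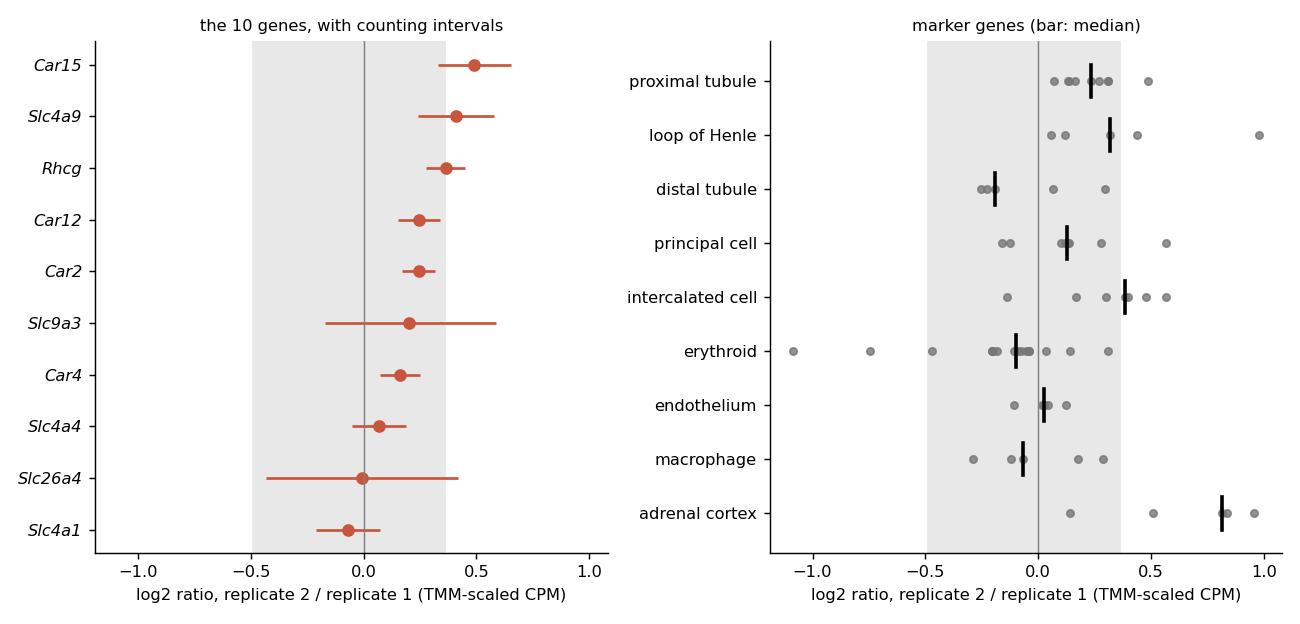
Log2 ratio of replicate 2 to replicate 1 (TMM-scaled CPM) for the 10 genes with 95% counting intervals (left) and for single marker genes by list with the median as a bar (right), the grey band holding the 5% to 95% range of all genes. Car15, Slc4a9 and Rhcg lie at or beyond the upper edge of the band, Slc4a1 at -0.07 is the lowest of the 10, and the intercalated median of 0.38 stands above the erythroid median of -0.10.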

How the data were processed

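Total RNA above 200 nt from 2 libraries was used, 10 ng each, per the labels. The submitters' processing notes name mm10 and annotation M4. An aligner, a quantifier and strandedness are not stated there. Per the file headers, the authors deposited expected counts (estimated, not always whole), TPM, FPKM, the percent of each transcript within its gene, posterior mean TPM and lower and upper TPM bounds (a signal whose interval level is not stated), for genes and transcripts. TPM is scaled to length and over all entries, spike-ins included. Mouse genes took 37900132 counts in replicate 2 and 34261328 in replicate 1, and entries that are no mouse gene 2.08% and 2.82%.

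Names, types and coordinates came by identifier from GENCODE M21 on GRCm38 (42462 genes matched, 884 not). Model lengths in M4 and M21 were equal for 33 of 35 transcripts. Detection was 1 TPM in both libraries, and log2 differences between genes used TPM + 0.1. For the pools, expected counts were rounded, filtered at a mean of 1 CPM, scaled by TMM with a prior count of 2 (edgeR 4.0.16 under R 4.3.3), and checked on simulated data. DESeq2 1.42.0 gave alternative size factors. Other steps used Python 3.11.15, numpy 2.4.6, pandas 2.3.3, scipy 1.17.1 and matplotlib 3.10.9. An erythroid form of Slc4a1 was a protein-coding model including the first coding exon, and a kidney form one starting downstream of it. Promoters came from RefSeq (GRCm38.p6), and no exonic overlap other than that of Car15 was found.

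Named genes are the 10, the up to 4 highest and 2 lowest of each pathway list, the up to 4 highest and the lowest of each marker list, and transcripts with at least 10% of a gene, with exceptions named in the text. A few of the genes so chosen are left out of the text. Members and lists were chosen with earlier results of these data known. Alternatives covered thresholds, estimators, scalings, pseudocounts and each replicate left out.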

Additional observations from a re-analysis of the deposited data

How the results depend on the processing

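Detection of the 10 genes held for 9 at 1 FPKM and for 8 at 2 TPM in both libraries. At 0.5 TPM and with either replicate left out all 10 passed. That follows from reaching 1 TPM in both libraries and is no separate check. All 10 kept their rank by FPKM. The share of the erythroid form of Slc4a1 was 100 to 100% with either replicate left out and 84.8% by posterior mean. By posterior mean the rest lay on models with 0 counts. The upstream start of Slc4a4 took 46.5 to 50.4% with either replicate left out, 62.6% with models coding over 3000 nt and 77.1% by expected counts, and these alternatives were chosen after seeing the data. Of the pool ratios, 41 of 50 recomputed values moved by less than their counting interval. The other 9 were all under scaling to spike-in totals, which set the median of all genes to 0.43, so the ratios are relative to most genes. The share of all genes beyond 2-fold was 3.07% with spike-ins and 10.0% with no filter. Of the other values, 46 of 50 levels, 34 of 36 neighbour differences and 48 of 56 transcript shares moved by less than the spread between replicates. With 2 libraries, leaving 1 out always moves a mean by less than that spread, or not at all. For each replicate left out, 10 levels, 9 neighbour differences and 14 transcript shares in these counts therefore could not have moved further and show no stability. For neighbour pairs without overlap a change of sign was not possible, and no other called value changed sign. Small values did: Car12 minus Car15 was -0.10 log2 units without replicate 1 (0.04 over both libraries), and Slc4a9 minus Slc4a1 was -0.03 without replicate 2 (0.21 over both). With spike-in totals the pool ratio was 0.36 for Slc4a1 and 0.42 for Slc26a4, against -0.07 and -0.01 with TMM, and with no filter that of Slc26a4 was 0.00265. No pairing of samples was possible because there is 1 group.

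Depth limits Slc9a3 and Slc26a4 and all short models. One tissue at one age, 2 pools and gene models of an early annotation limit what the shares of forms can show.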
